A study of Drosophila melanogaster with 6 samples.

Results

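The odorant receptor (Or), gustatory receptor (Gr) and ionotropic receptor (Ir) genes of Drosophila melanogaster were examined in whole female third-instar larvae with and without roX RNA. The set held every gene whose probeset carries, as its only gene symbol in the platform annotation, Or, Gr or Ir followed by a number, or Orco. It comprised 166 genes, 57 Or, 56 Gr and 53 Ir, read by 186 probesets, out of 11982 genes with 1 symbol and 18769 non-control probesets. All 166 were matched by gene number to the same symbol in the RefSeq gene table, which lists 187 such genes, and the other 21 were not analysed here. Each gene was read by its brightest probeset over the 6 arrays.

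The mutant larvae carried roX1SMC17A, a roX1 mutation, with the deficiency Df(1)52, and had neither roX1 nor roX2. The control larvae carried the same mutant chromosome with a roX1 transgene under the hsp83 promoter, [hsp83-roX1+]. Both groups also carried a w+ transgene, so the control is a rescued mutant and not a wild-type strain. Each of the 3 mutant and 3 control arrays received RNA of 1 independent pool of 50 larvae. The series asks whether females need roX RNA for normal gene expression, and the comparison here asks it for genes that few cells of a larva use.

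Values are log2 RMA expression values, a 1-colour array measure in which a difference of 1 is a doubling. Array medians lay between 5.45 and 5.49, and correlations across probesets were 0.9903 to 0.9976 within groups and 0.9903 to 0.9958 between them. As a check of the larval label, 11 of 11 measured salivary glue, fat body, gut and muscle genes were far above background, with means from 9.003 to 14.4. One of them, the gut lysozyme gene LysX, averaged 9.96 in mutants and 11.8 in controls (log2 change -1.86, limma adjusted p = 0.0015), and the other 10 did not pass, with log2 changes from -0.09 for Sgs3 to 0.75 for the muscle gene Mlc2. For arrays, their number, here 3 against 3, limits the precision.

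Insects smell and taste through these families. An Or protein forms an ion channel together with the shared co-receptor Orco, an Ir protein works with a co-receptor such as Ir8a, Ir25a or Ir76b, and Gr proteins act in groups in taste neurons. The larva smells through a few neurons of the dorsal organ at the tip of the head, each of which uses 1 or a few Or genes. Other Ir genes serve the sensing of cooling, dryness and moisture. In RNA of whole larvae, such transcripts are diluted by those of all other tissues. Fewer cells of a type and less RNA per cell cannot be told apart in such samples.

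Most receptor genes lay in the dim range of the array in both genotypes. The median over the 166 genes of the mean value was 3.45, the lowest was 2.68 and the highest 5.32, against a median of 7.02 over all genes with 1 symbol. Background was set at 4.51, the lowest mean among the 11262 probesets kept after the dimmest 40% were left out, since the files hold no detection calls. By this level, 12 receptor genes (7.23%) had a mean at or above background, against 74.1% of all genes with 1 symbol. Probes differ in how well they bind, so a value near this level does not order the transcripts by abundance. A mean above the level does not show that a gene is expressed: 9 of 37 genes taken as not used by female larvae also had one. The genes nearest to the level were Gr59e (4.57) and Ir8a (4.58) inside it and Or43b (4.48) and Ir64a (4.42) outside it.

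**Figure D1:**
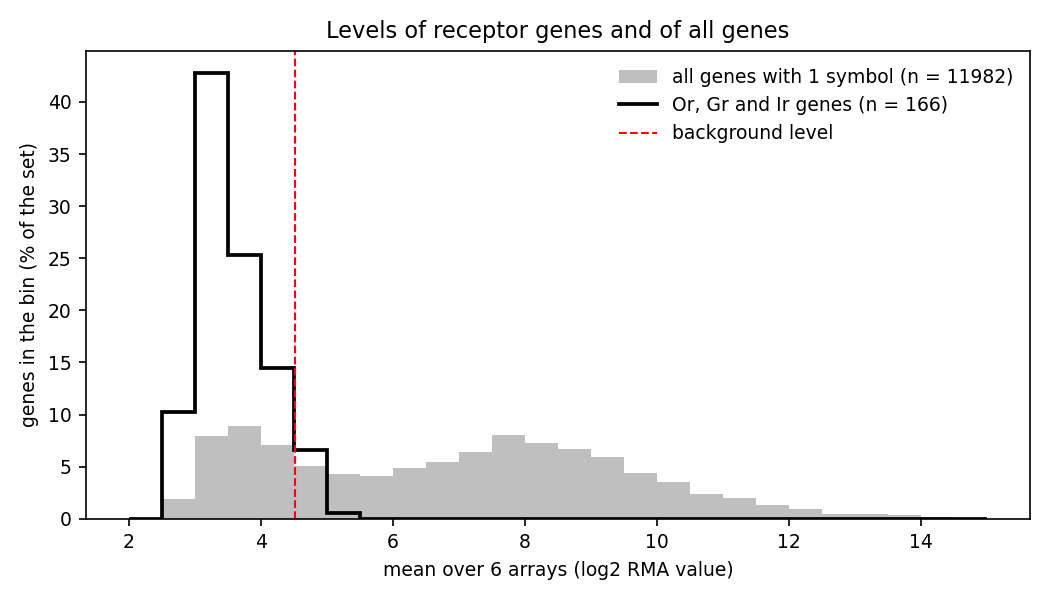
Distribution of mean log2 RMA values (x axis, bins of 0.5) as a percentage of each set (y axis), for the 166 Or, Gr and Ir genes (black line) and all 11982 genes with 1 symbol (grey). The receptor genes lie mostly left of the dashed background level of 4.51, and their most frequent bin, 3 to 3.5, holds 42.8% of them.

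The number of receptor genes above background was similar on all arrays. It was 11, 12 and 11 on the 3 mutant arrays and 14, 12 and 15 on the 3 control arrays. The groups met at 12, and the means were 11.3 ± 0.58 genes in mutants and 13.7 ± 1.53 in controls (SD, n = 3 each). As shares these are 6.83% ± 0.35 in mutants and 8.23% ± 0.92 in controls. The difference of -2.33 genes shrank to -0.33 when the arrays were quantile normalized to each other, with 12.0 genes in mutants and 12.3 in controls. It was -3.33 with the mean of all probesets of a gene, 8.33 genes in mutants and 11.7 in controls, and ran from -3.50 without control replicate 2 to -1.17 without mutant replicate 3. At a lower level of 3.96, which leaves out the dimmest 30%, it was -1.33, with 37.7 genes in mutants and 39.0 in controls. No receptor gene was above background on all 3 arrays of 1 group and on none of the other. There were 149 genes that reached the level on no array, 6 that reached it on all 6 and 11 that reached it on some.

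By family, Ir genes reached background most often. On the mutant arrays 6, 7 and 6 of 53 Ir genes did so, against 9, 7 and 8 on the control arrays. For the 56 Gr genes the counts were 2, 4 and 2 in mutants and 3, 3 and 3 in controls. For the 57 Or genes they were 3, 1 and 3 in mutants and 2, 2 and 4 in controls. Mutant and control counts therefore overlapped or met in each family.

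**Figure D2:**
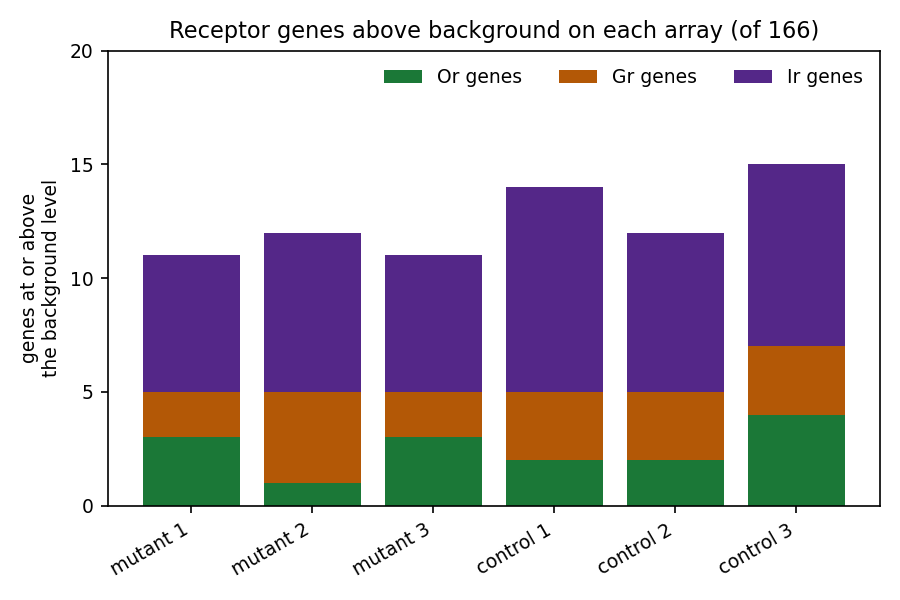
Number of receptor genes at or above the background level (y axis) on each of the 3 mutant and 3 control arrays (x axis), stacked by family. Mutant arrays show 11 or 12 genes and control arrays 12 to 15, with Ir genes the largest share on each array.

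The co-receptors were near or under background in both genotypes. Orco, the channel partner of all Or proteins, had values of 4.02, 3.81 and 3.87 in mutants and 3.92, 3.90 and 3.81 in controls. These overlap, and all 6 lie under the background level (log2 change, mutant minus control, 0.03, 95% interval -0.17 to 0.22). Ir8a, the co-receptor for acid-sensing Ir proteins, had 4.59, 4.53 and 4.37 in mutants and 4.74, 4.53 and 4.70 in controls. It was just above the level as a mean over the 6 arrays, and the groups overlap (log2 change -0.16, limma adjusted p = 0.668). Ir25a, the most broadly used co-receptor, averaged 3.99 ± 0.08 in mutants and 4.12 ± 0.17 in controls. Ir76b, a co-receptor in taste and smell, averaged 4.17 ± 0.03 in mutants and 4.29 ± 0.15 in controls (SD, n = 3 each). The difference of neither passed (limma adjusted p = 0.817 for Ir25a and 0.809 for Ir76b).

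Odorant receptors known to be used in the larval dorsal organ were almost all under background, as were the other Or genes. Of 25 such genes listed from textbook knowledge, 24 had a probeset and 1 of these, Or94a, was above the level (4.17%), with a median level of 3.37 over the list. Of the other 32 Or genes apart from Orco, 1 was above it (3.12%), with a median level of 3.50. Or94a had 4.95, 4.92 and 5.07 in mutants and 4.92, 4.91 and 4.87 in controls. The lowest mutant array lay above the highest control array, by far less than the spread within the mutants (log2 change 0.08, limma adjusted p = 0.761). Its direct neighbour Or94b had the opposite order, 3.98 ± 0.06 in mutants and 4.10 ± 0.06 in controls (SD, n = 3 each, log2 change -0.12, limma adjusted p = 0.784). Or43a, the 1 other Or gene above the level, is known as an odorant receptor of the adult antenna. It had 4.62, 4.48 and 4.83 in mutants and 4.54, 4.58 and 4.57 in controls, and the mutant arrays spanned the controls (limma adjusted p = 0.842). The 24 larval genes had log2 changes from -0.16 for Or13a to 0.12 for Or85c with a median of -0.02, and none had an unadjusted p under 0.05.

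The carbon dioxide receptor is built from Gr21a and Gr63a, and both were under the level. Gr21a had 3.65, 3.79 and 3.90 in mutants and 4.12, 3.81 and 3.79 in controls. Gr63a had 3.51, 3.21 and 3.56 in mutants and 3.68, 3.60 and 3.45 in controls. For both genes the groups overlap, with log2 changes of -0.13 (95% interval -0.39 to 0.14) and -0.15 (95% interval -0.42 to 0.12).

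The sugar receptor genes held the 3 highest log2 changes of the whole set, none of which passed the test. Of 9 genes of this list 5 had a probeset of their own, and 4 of them were higher in mutants on average. Gr64a had 4.42, 5.004 and 4.12 in mutants and 4.01, 4.31 and 3.88 in controls. Its mutant arrays were spread over most of the range, and 2 of them lay above every control (log2 change 0.45, 95% interval -0.06 to 0.96, limma adjusted p = 0.721). Gr64f, a sugar receptor gene of the same group used with many partners, had 4.43, 4.32 and 4.34 in mutants and 4.03, 4.09 and 4.22 in controls. The groups do not overlap, and the change was 0.25 (95% interval 0.06 to 0.44, limma adjusted p = 0.508). Gr61a, another sugar receptor gene, had 4.51, 4.50 and 4.49 in mutants and 4.00, 4.47 and 4.09 in controls. All 3 mutant arrays lay above the controls, with control replicate 2 close under the lowest of them (log2 change 0.31, 95% interval 0.03 to 0.60, limma adjusted p = 0.637). Gr5a, the trehalose receptor gene, was lower on average in mutants at 4.54 ± 0.07, against 4.66 ± 0.10 in controls (SD, n = 3 each, limma adjusted p = 0.703). Gr43a, a fructose receptor gene also used in the brain, averaged 3.74 ± 0.17 in mutants and 3.67 ± 0.03 in controls (SD, n = 3 each, limma adjusted p = 0.900). Gr64a, Gr64f and Gr61a all lie on 3L. Their means over the 6 arrays were under the background level of 4.51, and the mutant mean of Gr64a alone, 4.515, was just above it, against a control mean of 4.07.

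No bitter receptor gene passed the test. Gr66a and Gr33a, used in most bitter taste neurons, had log2 changes of 0.02 and -0.001 with means of 3.40 and 3.42 over the 6 arrays. Gr93a, needed for the response to caffeine, was above the level with 4.79, 4.89 and 5.04 in mutants and 5.05, 4.86 and 4.81 in controls, which cover nearly the same span. Over the 6 bitter genes the log2 changes ran from -0.14 for Gr32a to 0.02 for Gr66a. Gr28b, used in warmth and light sensing, averaged 3.28 ± 0.06 in mutants and 3.41 ± 0.19 in controls (SD, n = 3 each, limma adjusted p = 0.817).

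Among receptors of temperature and humidity, 3 of 4 genes were above background, and 2 of these had mutant values below all controls, as had 9.33% of the probesets above background. Ir21a, which serves the sensing of cooling, had 5.19, 5.20 and 5.05 in mutants and 5.46, 5.31 and 5.72 in controls. The groups do not overlap, and the change was -0.35 (95% interval -0.63 to -0.07), which did not pass (limma adjusted p = 0.456). Its second, dimmer probeset, with a mean of 3.46, also had non-overlapping groups, 3.31 ± 0.11 in mutants and 3.60 ± 0.14 in controls (SD, n = 3 each, log2 change -0.29, limma adjusted p = 0.556). Ir68a, needed for the sensing of moisture, had 4.73, 4.60 and 4.64 in mutants and 5.20, 4.88 and 4.79 in controls. Control replicate 1 stood highest, and the groups do not overlap (log2 change -0.30, 95% interval -0.58 to -0.02, limma adjusted p = 0.531). Ir40a, needed for the sensing of dryness, had 4.79, 4.82 and 4.85 in mutants and 5.03, 4.88 and 4.78 in controls, which overlap. Ir93a, a partner of all 3, averaged 3.90 ± 0.27 in mutants and 3.87 ± 0.06 in controls (SD, n = 3 each, limma adjusted p = 0.975).

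**Figure D3:**
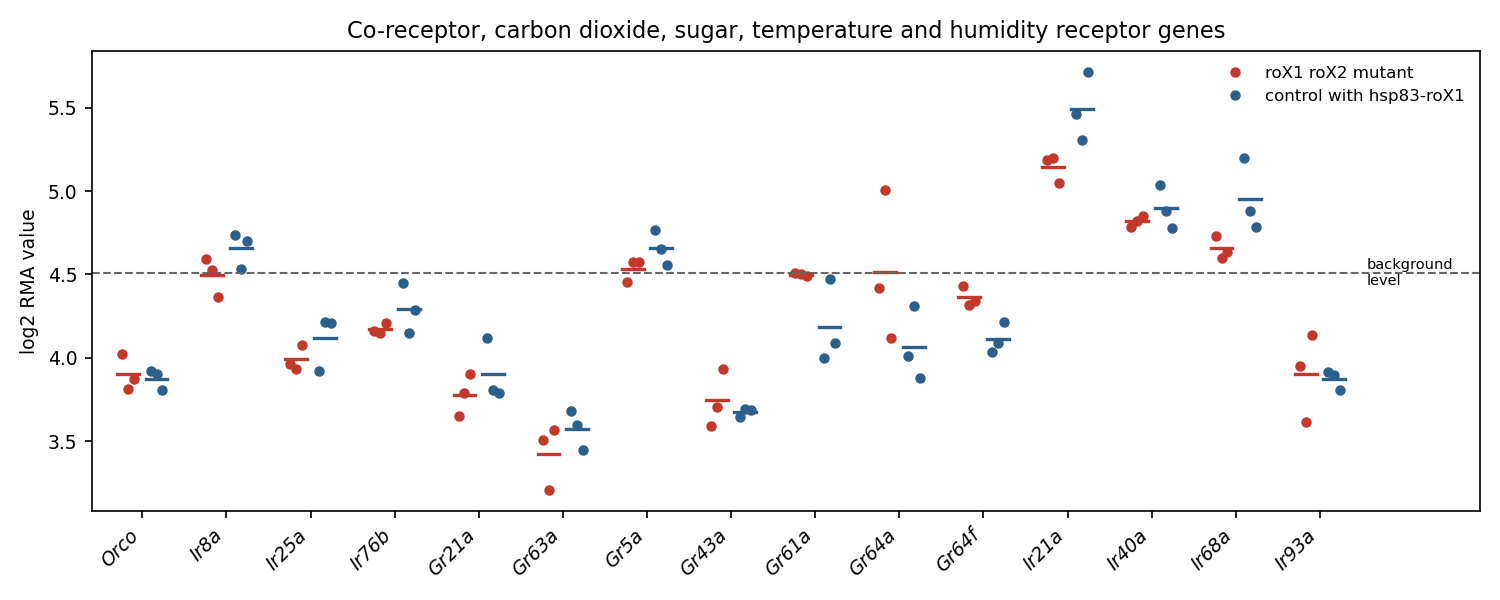
Log2 RMA values (y axis) of co-receptor, carbon dioxide, sugar, temperature and humidity receptor genes (x axis). Points are arrays, lines are group means, mutants stand left of controls, and the dashed line is the background level of 4.51. Gr64f and Gr61a lie higher and Ir21a and Ir68a lower in mutants with no overlap, and no gene shown passed the test.

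The remaining genes above background were Ir60a, Ir67b, Ir68b and Gr59e, and each had overlapping groups. Ir60a had 4.88, 4.87 and 4.79 in mutants and 4.95, 4.82 and 4.85 in controls. Ir67b averaged 4.62 ± 0.21 in mutants and 4.63 ± 0.11 in controls. Ir68b averaged 4.58 ± 0.21 in mutants and 4.62 ± 0.08 in controls. Gr59e averaged 4.53 ± 0.04 in mutants and 4.61 ± 0.11 in controls (SD, n = 3 each). Their log2 changes lay between -0.08 for Gr59e and -0.01 for Ir67b, with limma adjusted p-values between 0.803 and 0.981.

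**Figure D4:**
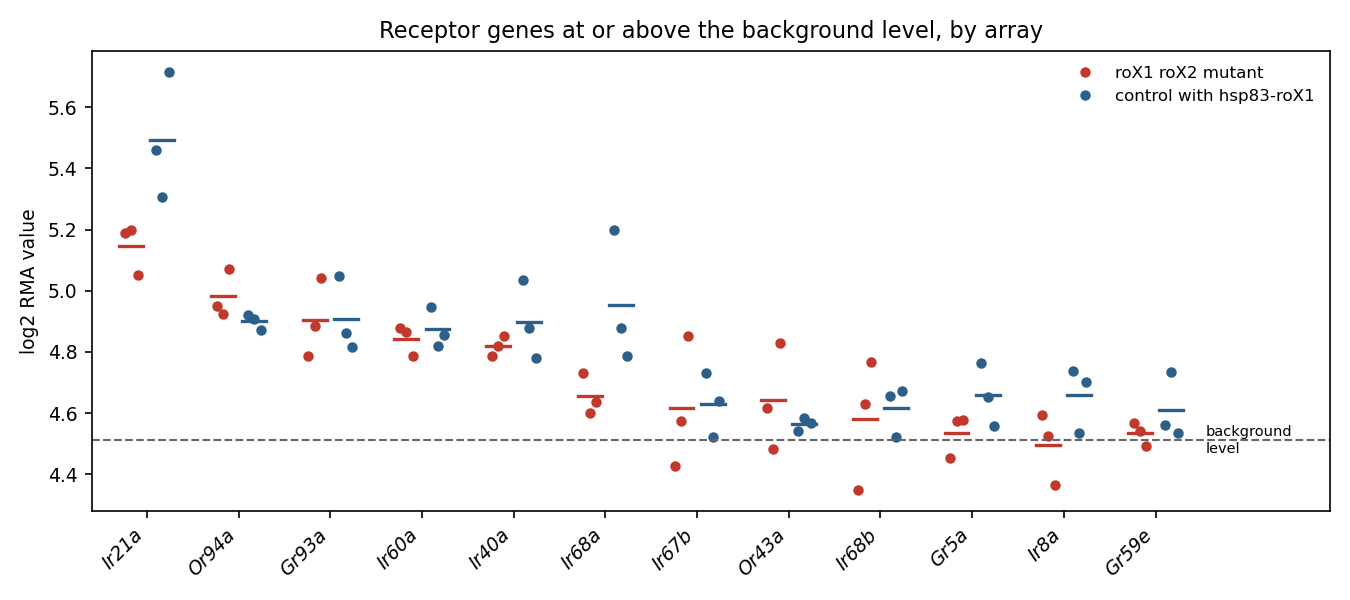
Log2 RMA values (y axis) of the 12 receptor genes whose mean was at or above the background level (x axis, highest mean first). Points are arrays, lines are group means, mutants stand left of controls, and the dashed line is the background level of 4.51. Ir21a and Ir68a are lower and Or94a is higher in mutants with no overlap, and the other 9 genes overlap.

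No receptor gene passed the test for a difference between the genotypes. In limma's fit of the 11262 brighter probesets 62 (0.551%) passed, with a threshold of 0.05 on the adjusted p, and 0 of the 12 receptor genes tested there were. At an unadjusted p under 0.05 there were 2 of these 12 (16.7%), Ir21a and Ir68a, against 9.0% of the tested probesets. In the fit of all 18769 probesets, which includes every receptor gene, 70 (0.373%) passed and 0 of 166 receptor genes, with a smallest limma adjusted p of 0.490 for Gr97a. At an unadjusted p under 0.05 there were 8 of 166 (4.82%), against 7.51% of all probesets. Of the 154 genes under the background level 6 (3.90%) had such a p, against 3.61% of the probesets under it.

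Gr97a had 3.39, 3.35 and 3.42 in mutants and 3.66, 3.55 and 3.64 in controls. Gr85a had 3.23, 3.26 and 3.24 in mutants and 3.54, 3.44 and 3.43 in controls. Gr47b had 3.78, 3.69 and 4.02 in mutants and 4.23, 4.02 and 4.07 in controls. In these 3 gustatory receptor genes every mutant array was below every control array, barely so in Gr47b, with log2 changes of -0.23 for Gr97a, -0.22 for Gr85a and -0.28 for Gr47b. All 3 lie under the background level (limma adjusted p = 0.490, 0.505 and 0.625), where 6.37% of probesets were lower with no overlap. They were named for their small p, so the lack of overlap is no separate evidence.

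The size of any difference was bounded for most genes. The 95% interval of the log2 change lay within -0.5 to 0.5 for 158 of the 166 genes and within -1 to 1 for all of them, with the highest upper bound, 0.96, for Gr64a. For a gene under background such an interval bounds the array signal and not the transcript: a fall could not be seen there.

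Over the set, the median change was slightly below 0, as it was over dim genes in general. The median log2 change was -0.03 over the 166 genes, against -0.02 over the 3100 genes with 1 symbol under the level and -0.01 over all genes with 1 symbol. It was -0.03 in each of the Or, Gr and Ir families, with 113 genes below 0 and 53 above. For the 12 receptor genes above the level it was -0.06, against -0.005 over the 8882 genes with 1 symbol above it. In 10 genes (6.02%) every mutant array was below every control, against 8.15% of all probesets, and in 3 (1.81%) every mutant array was above, against 5.68%. Set against probesets of like brightness, 8 of the 154 genes under the level were lower with no overlap (5.19%) and 2 higher (1.30%), against 6.37% lower and 3.72% higher. Of the 12 genes above the level 2 were lower (16.7%) and 1 was higher (8.33%) with no overlap, against 9.33% lower and 7.0% higher among the brighter probesets. Control replicate 1 was the highest of the 6 arrays for 59 of the 166 genes (35.5%), and for 33.8% of the probesets under the level. Its part in the changes was not tested. With 1 array left out the median ran from -0.07 without mutant replicate 3 to -0.02 without control replicate 1.

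**Figure D5:**
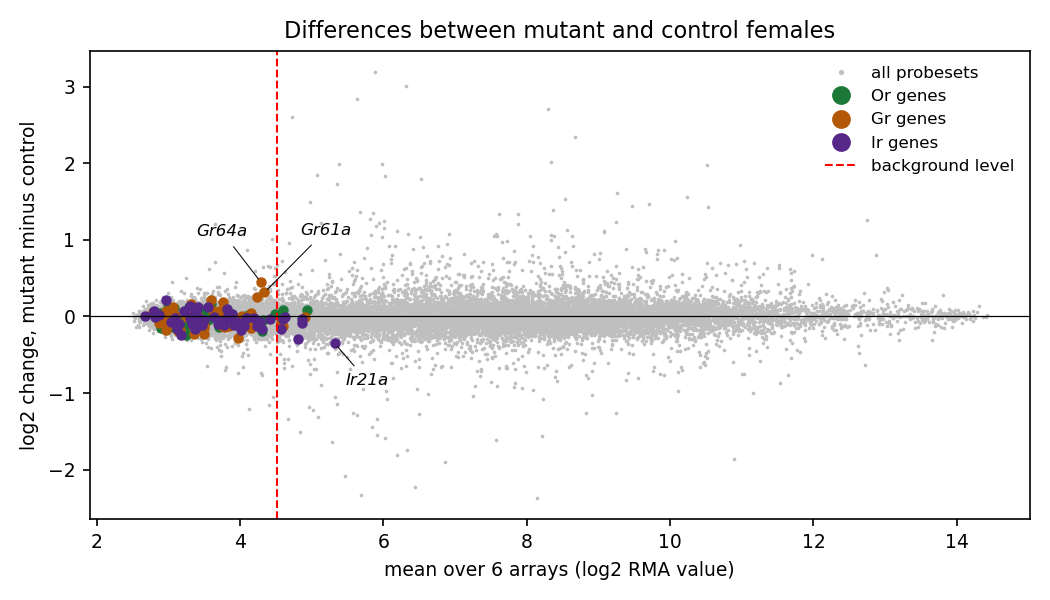
Log2 change, mutant minus control (y axis), against mean log2 RMA value (x axis) for all 18769 probesets (grey) and for the Or, Gr and Ir genes (coloured), with the background level of 4.51 dashed. Receptor genes lie between -0.35 for Ir21a and 0.45 for Gr64a, inside the cloud of other dim probesets.

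The genes were spread over X and the large autosomal arms. There were 31 on 2L, 45 on 2R, 28 on 3L, 41 on 3R and 21 on X, with median log2 changes between -0.05 on 2L and -0.02 on 3R. Many receptor genes stand side by side: in RefSeq gene order there were 29 runs of directly neighbouring genes of 1 family, holding 66 of the measured genes. The run of Gr22e, Gr22d, Gr22c, Gr22b and Gr22a had log2 changes from -0.17 to 0.0004 and levels from 2.99 to 4.20. The run of Ir52a, Ir52b, Ir52c and Ir52d had changes from -0.12 to 0.07. The run of Gr36a, Gr36b and Gr36c had changes from 0.02 to 0.19, and that of Or65a, Or65b and Or65c from -0.19 to -0.05. The probesets of the Gr64 run between Gr64a and Gr64f name several genes each and are not used here.

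For 12 of the genes there were several probesets. Their log2 changes shared a sign in 4 of the 12, Gr23a, Ir21a, Ir40a and Ir41a. The 5 probesets of Gr39a, a gene with alternative first exons, had means from 2.77 to 4.15 and changes from -0.09 to 0.02. In Gr93a only the brighter of 2 probesets was above the level, with means of 4.91 and 2.90. The dimmer one averaged 3.003 ± 0.046 in mutants and 2.802 ± 0.087 in controls with no overlap (SD, n = 3 each, log2 change 0.20, limma adjusted p = 0.625), while the brighter one had a change of -0.004.

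Genes that work beside the receptors were above background more often than the receptor genes and less often than all genes with 1 symbol (74.1%). A list held 27 genes with a role in or around chemosensory neurons, such as binding proteins, sensory channels and neuron fate factors. Of these, 23 had a probeset and 14 (60.9%) were above the level. In whole larvae their signal need not come from chemosensory neurons. Of the 14 above the level, 0 were called higher and 0 lower, against 0.551% of the brighter probesets called. With so few genes, 0 calls is near that share. The median change over the 23 was -0.05. Of the 23, 4 had an unadjusted p under 0.05. That is a larger share than the 7.51% of all probesets or the 9.0% of the brighter ones, and the list was not tested as a set. Arr1, an arrestin, had 6.68 in mutants and 6.36 in controls as means (log2 change 0.32, limma adjusted p = 0.343). Obp83b, an odorant-binding protein gene, had 4.35 in mutants and 4.68 in controls (-0.34, limma adjusted p = 0.348). The channel gene ppk28, used in water taste, had 3.80 in mutants and 4.05 in controls (-0.25, limma adjusted p = 0.558), and ato, a proneural gene of sense organs, 6.56 in mutants and 6.74 in controls (-0.18, limma adjusted p = 0.551). The proneural gene amos of the olfactory sensilla had a change of -0.18 (limma adjusted p = 0.734).

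The ionotropic glutamate receptor genes, from which Ir genes are descended, had 5 of 12 measured members (41.7%) above the level. This compares with 74.1% of all genes with 1 symbol. Of the 5, 0 were called, against 0.551% of the brighter probesets. KaiR1D, a kainate-type receptor gene, had the smallest p, with 4.58 in mutants and 4.25 in controls (log2 change 0.33, limma adjusted p = 0.378), and the muscle receptor subunits GluRIID and GluRIIE had changes of 0.09 and 0.14. Neuron markers were above the level in 10 of 12 cases (83.3%), with 0 called and a median change of -0.04. With so few genes tested in either list, 0 calls is near the share of 0.551%. The synapse protein gene Syn had the lowest log2 change of these markers, with means of 5.37 in mutants and 5.79 in controls (log2 change -0.43, limma adjusted p = 0.186). The pan-neuronal marker elav had 5.64 in mutants and 5.74 in controls.

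A list of genes taken as not used by female larvae was set beside the background level. That they are silent in these larvae was assumed and not tested. It held seminal fluid, eggshell and Y-linked genes, of which 37 had a probeset. Of these, 9 (24.3%) had a mean at or above 4.51, more than the 7.23% of receptor genes, and the list's 95th percentile was 5.72. The brightest receptor gene, Ir21a, had a mean of 5.32, so no receptor gene reached that percentile.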

How the data were processed

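RNA of 6 pools of 50 female larvae was hybridized to Affymetrix Drosophila Genome 2.0 arrays, 1 per pool. The deposited values are log2 expression values: the authors used RMA for background, normalization and summary of the probes, per the submitters' processing notes and the labels' design text. Its version is not given in the sources used here. Of 18952 probesets, 183 control probesets were left out. The platform annotation gave 1 symbol for 13647 probesets, several for 402 and none for 4720. The authors' present and absent calls were not used here, and a filter that left out the dimmest 40% by mean took their place. RMA normalizes the arrays to each other, so a shift of most transcripts at once may be lost.

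Differences were tested with limma 3.58.1 (lmFit and eBayes, two-sided, R 4.3.3), with Benjamini-Hochberg adjustment over all tested probesets. For a gene above the filter the adjusted p is from the fit of the 11262 brighter probesets, and for a dimmer gene from the fit of all 18769. Counts over the whole set use the latter. Lists were described by counts and medians, with no set test. The limma fit of the brighter probesets was tested on simulated data. Figures were drawn with matplotlib 3.10.9. The members, lists and tests were chosen with earlier results of these data known. Named were the co-receptors, carbon dioxide, main bitter and fructose receptors, Gr28b, every gene above background, the 6 with the smallest p, and up to 5 per other list with the smallest p. Members named to show a range, a run of neighbours or several probesets were chosen after their values were seen. Alternatives were other filters, quantile normalization, array weights, an intensity trend, the replicate block, the mean of a gene's probesets, other background levels and leaving out each array. No sequences were used here.

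The replicate numbers are shared between groups. Deviations of same-numbered arrays from their group means correlated at 0.05, -0.19 and 0.32, and those of differently numbered arrays at -0.29 to 0.21. The numbers were not taken to pair the arrays, and the replicate block was run as an alternative.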

Additional observations from a re-analysis of the deposited data

How the results depend on the processing

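No receptor gene was called under any setting in which one was tested: other filters, quantile normalization, array weights, an intensity trend, the replicate block, or any 1 array left out. With the dimmest 50% left out no receptor gene was tested. Over the 28 genes followed through these settings the smallest limma adjusted p was 0.168, for Ir21a with array weights. The sign was kept throughout in 18 of them, among them Ir21a (-0.44 to -0.24), Ir68a (-0.38 to -0.18), Gr61a (0.22 to 0.46), Gr64a (0.20 to 0.65) and Gr64f (0.20 to 0.30). The cause of the other sign changes was not tested. With 1 array left out the log2 change ran from -0.037 to 0.030 for Gr33a, -0.023 to 0.147 for Gr43a, -0.058 to 0.135 for Gr66a, -0.073 to 0.065 for Gr93a, -0.058 to 0.0071 for Ir60a, -0.130 to 0.082 for Ir67b, -0.129 to 0.080 for Ir68b, -0.090 to 0.173 for Ir93a, -0.015 to 0.159 for Or43a and -0.033 to 0.072 for Orco. Quantile normalization turned Gr33a to 0.015, Gr93a to 0.018 and Ir67b to 0.0054. Array weights turned Gr93a to 0.022, Ir60a to 0.014, Ir93a to -0.061 and Or43a to -0.022. The mean of the gene's probesets turned Gr93a to 0.098.

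Over all probesets, 232 were called with array weights and 28 under the replicate block, against 62. With 1 array left out the count ran from 12 to 84: 17, 12 and 27 without mutant replicates 1, 2 and 3, and 84, 31 and 20 without control replicates 1, 2 and 3. The cause was not tested.

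The difference in the number of receptor genes above background, -2.33, was -3.33 with the mean of each gene's probesets, -0.33 with quantile normalization and -0.33 at the level that leaves out the dimmest 50%. It was 0 at the 95th percentile and at the highest value of the list of genes taken as not used by female larvae. No receptor gene had a mean at or above these or the 50% level, so the differences there say nothing of the genotypes. At the level that leaves out the dimmest 30% the difference was -1.33, with 37.7 genes in mutants and 39.0 in controls. With the main filter and 1 array left out the difference ran from -3.50 to -1.17, with -1.17 without mutant replicate 3 and -1.50 without control replicate 1. The number of genes with a mean above background was 39 when the dimmest 30% were left out and 9 with the mean of each gene's probesets, against 12. For most receptor genes the signal over background limits what could be seen.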
